A study of Caenorhabditis elegans with 9 samples.

Results

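The body shape collagens described here are 8 cuticle collagen genes of Caenorhabditis elegans whose mutants are short, long or twisted: dpy-4, dpy-5, dpy-13, sqt-1, sqt-2, rol-6, rol-8 and lon-3. They were chosen by gene symbol, with no measured value in the rule but with earlier results of these data known. Shares of all genes printed beside them are therefore a description, not a test of the set. None of the 8 belongs to the group of collagens that line the furrows of the cuticle. They make up 8 of the 45461 entries of the count table, and all 8 were among the 13985 genes with enough counts to be tested. RNA came from whole animals, collected as adults 48 hours after the L4 stage, the last larval stage. The worms were kept on agar plates holding either of the compounds nicotinic acid and 1-methylnicotinamide (MNA), or water as the solvent control, with 3 libraries in each of these groups. Nicotinic acid is a vitamin from which cells make NAD, and MNA is the methylated form of the related amide. MNA was given at 1 µM, while the labels give nicotinic acid as 1 mM in one field and 1 nM in another, so the doses of the compounds differed under either reading. All plates came from the same batch of agar. The sources used here do not give the strain or the number of animals per library. The labels do not say that replicates were separate cultures, so p-values measure only the spread between these samples.

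The cuticle is the collagen-rich outer coat of the worm, secreted by the epidermis and rebuilt at each moult. Its collagens are trimeric proteins that are cut, cross-linked and laid down in layers, and transcripts of many of them rise and fall in waves within each moulting cycle. Mutations of the members change body form without removing the cuticle. Loss of the dumpy genes (dpy) shortens and widens the animal, squat and roller alleles (sqt and rol) shorten it or twist it about its long axis, and loss of lon-3 lengthens it.

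Transcripts of all 8 body shape collagens were higher in worms on MNA, and higher by a smaller estimate in worms on nicotinic acid, than in worms on water. Not every collagen with a mutant body shape rose. Of 7 others with mutant shapes or blisters, outside the furrow group, dpy-17 and dpy-14 were called lower under each compound. In that list 0 were called higher under MNA and 3 under nicotinic acid, and each of these calls was lost in some fits with 1 library left out. Summed over the 8 genes, the level was 84.2, 62.7 and 113 CPM (counts scaled to a common library total, adjusted between libraries by TMM factors) in control replicates 1 to 3. It was 352, 295 and 201 CPM in the nicotinic acid libraries and 486, 557 and 394 CPM in the MNA libraries. The groups did not overlap in this sum, in which dpy-4, dpy-5 and dpy-13 held the largest shares. Between the compounds 0 of the 8 genes were called, and the libraries of the compounds overlapped for dpy-5 and lon-3. The fitted rise ran from 4.20-fold for lon-3 to 5.78-fold for dpy-4 under MNA, and from 3.03-fold for rol-6 to 3.47-fold for lon-3 under nicotinic acid. The rise under MNA held for every member in every alternative fit, whereas that under nicotinic acid lost its call for every member but lon-3 in at least 1 fit with a library left out. In RNA of whole animals, a change in the number of cells or animals that make a transcript cannot be told apart from a change in the RNA made per cell.

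**Figure D1:**
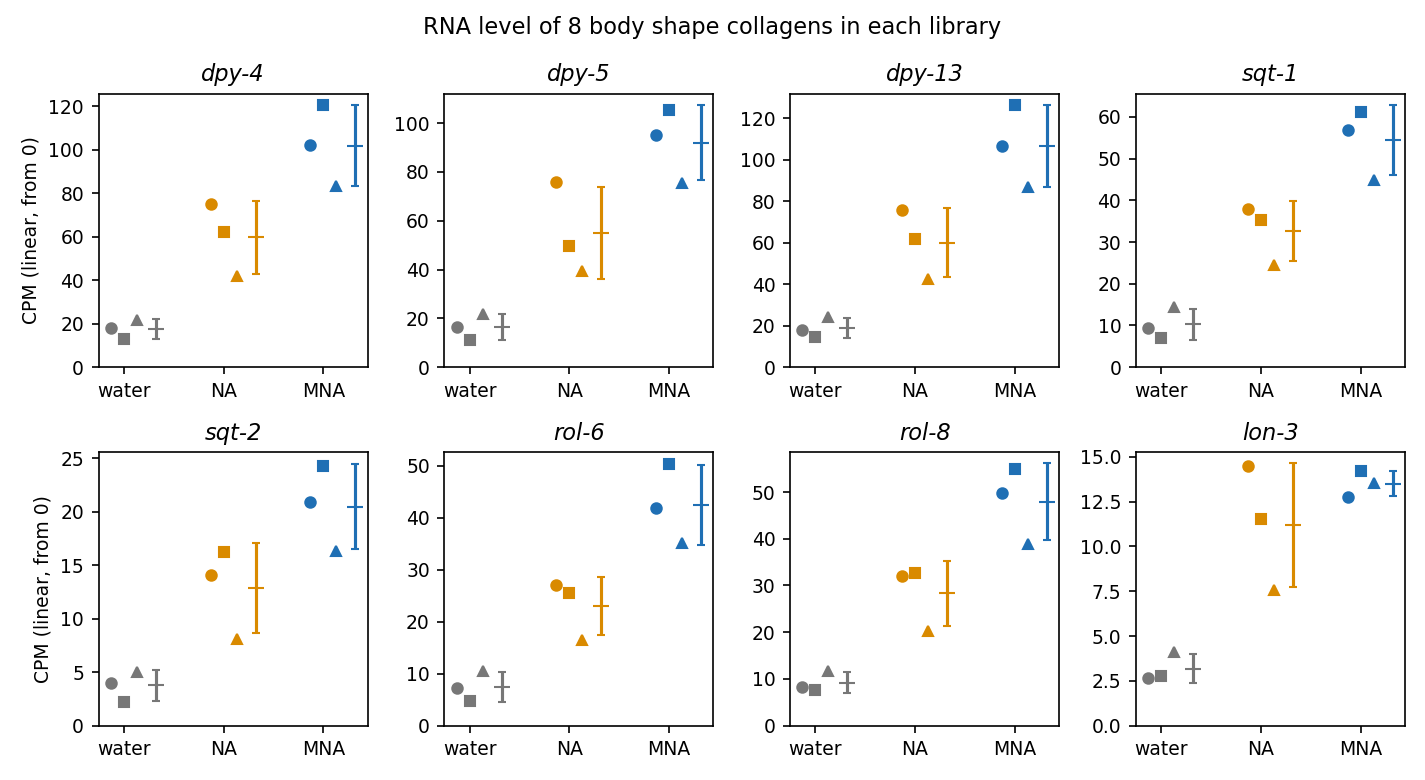
Level of each body shape collagen in every library, in CPM on a linear axis from 0, with a scale of its own for each gene; each symbol is 1 library on water, nicotinic acid (NA) or MNA, and bars give the group mean ± SD (n = 3). The control libraries lie lowest for all 8 genes, for dpy-4 between 12.8 and 21.7 CPM against 83.3 to 120.4 CPM in the MNA libraries.

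Depth was between 18501261 and 31247605 counts per library, so that a detection floor of 3 counts stood for 0.0960 to 0.162 CPM. Counts of the members ran from 53 for sqt-2 in control replicate 2 to 3473 for dpy-13 in MNA replicate 2, far above that floor, which covers counting error only. The common biological coefficient of variation of the model, its estimate of spread between replicates beyond counting error, was 0.0821. That of the members ran from 0.186 for lon-3 to 0.278 for sqt-2, above the value of 87.4% to 96.9% of the genes tested. Of the marker genes of adults, the cuticle collagen gene col-19 was at 255 to 404 CPM and the yolk protein gene vit-2 at 12610 to 18105 CPM. Other adult cuticle markers were low: col-7 and col-62 had at most 1 count in any library and were not tested. The blister collagen genes bli-1 and bli-2 were at 0.27 to 1.06 CPM in the controls.

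By the Ensembl annotation of the WBcel235 genome, 4 members (sqt-1, sqt-2, rol-6 and rol-8) lie on chromosome II, dpy-4 and dpy-13 on chromosome IV, dpy-5 on chromosome I and lon-3 on chromosome V. Their exons sum to between 855 bases for dpy-5 and 1125 bases for lon-3. Levels can be compared between genes on the scale of CPM per kilobase of exon. In the control group this level was 19.1 ± 6.13 for dpy-5 (SD, n = 3), 19.1 ± 4.99 for dpy-13 and 17.5 ± 4.52 for dpy-4. On this scale these 3 dumpy genes were the highest members in every group, and their ranges overlapped. The level per kilobase was 9.83 ± 3.61 for sqt-1, 8.43 ± 2.01 for rol-8 and 6.89 ± 2.63 for rol-6 in the controls, ranges that also overlapped with each other. It was lowest for sqt-2 at 3.65 ± 1.38 and lon-3 at 2.83 ± 0.722, again with overlap.

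The order of the group means per kilobase was the same in all 3 groups, and most neighbours kept it library by library. The level of dpy-4 was above that of sqt-1, that of rol-8 above rol-6 and that of rol-6 above sqt-2 in 9 of 9 libraries. The level of dpy-13 exceeded that of dpy-4, that of sqt-1 exceeded rol-8 and that of sqt-2 exceeded lon-3 in 8 of 9, and that of dpy-5 exceeded dpy-13 in 6 of 9. Under MNA the levels per kilobase were 108 ± 17.9 for dpy-5 and 12.01 ± 0.637 for lon-3 (SD, n = 3), the ends of the order. There sqt-2, at 19.9 ± 3.88 per kilobase, no longer overlapped with lon-3, its lowest library being at 15.8 against a highest of 12.6 for lon-3.

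In that annotation 6 of the members overlap no other gene. The gene dpy-4 is overlapped on the other strand by atln-2, at 1.65 to 3.69 CPM over all libraries, and on its own strand by 2 piRNA genes at 0 counts in every library. The gene lon-3 is overlapped on the other strand by ogdh-2, at 172 to 206 CPM. Whether counting used strand is not given, so reads of these genes and of their antisense partners cannot be told apart. Neither partner passed the test: the log2 fold change of atln-2 was 0.32 under MNA and 0.44 under nicotinic acid (edgeR quasi-likelihood adjusted p = 0.488 and 0.302), and that of ogdh-2 was -0.03 and 0.07 (adjusted p = 0.826 and 0.542). Collagen genes have paralogs of like sequence, and how reads shared between them were assigned is likewise not given. Both limits bear on the values above, including the order of genes per kilobase, and on those below.

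The first question was which transcripts differ between worms on MNA and worms on water. All 8 body shape collagens rose, with log2 fold changes from 2.07 to 2.53 and a median of 2.46, beside a median of -0.00273 over all genes tested. In the same comparison 3.63% of all genes were called higher and 3.78% lower. All 3 MNA libraries lay above all 3 control libraries for each of the 8 members, which was so for 11.5% of all genes. Ranked by log2 fold change among 13985 genes, the members stood between places 41 and 91.

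Among the dumpy collagens, dpy-4 was at 18.2, 12.8 and 21.7 CPM in control replicates 1 to 3 and at 102, 120.4 and 83.3 CPM in the MNA libraries. The lowest MNA library was well above the highest control library. Its mean rose from 17.6 ± 4.53 to 102 ± 18.5 CPM (SD, n = 3), a log2 fold change of 2.53 (edgeR quasi-likelihood adjusted p = 0.00492, SE 0.30), the largest of the members. For dpy-5, a collagen whose loss gives a strongly dumpy animal, the controls were at 16.3, 11.1 and 21.6 CPM and the MNA libraries at 95.3, 105 and 75.4 CPM. The groups were again apart, with control replicate 3 the highest of its group and MNA replicate 3 the lowest of its own. The log2 fold change of dpy-5 was 2.48 (edgeR adjusted p = 0.00843, SE 0.33), with the largest adjusted p of the 8. The dumpy collagen dpy-13 went from 17.9, 14.5 and 24.2 CPM in the controls to 106, 126 and 86.6 CPM under MNA, with the same libraries high and low as for dpy-4. Its log2 fold change was 2.49 (edgeR adjusted p = 0.00500, SE 0.29).

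Of the squat collagens, sqt-1, whose different alleles make worms roll, shorten or lengthen, was at 9.39, 7.01 and 14.4 CPM in the controls and at 57.0, 61.2 and 45.0 CPM under MNA. Every MNA library lay more than 30 CPM above the highest control. The log2 fold change was 2.39 (edgeR adjusted p = 0.00481, SE 0.29). For sqt-2, a collagen gene with squat and rolling mutants, the controls were at 4.0, 2.24 and 5.04 CPM and the MNA libraries at 20.9, 24.2 and 16.3 CPM. Its groups did not overlap either. It rose by 2.43 on the log2 scale (edgeR adjusted p = 0.00650, SE 0.35).

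Of the roller collagens, rol-6, whose dominant roller allele is a common marker of transgenic worms, was at 7.33, 4.73 and 10.4 CPM in the controls and at 41.9, 50.4 and 35.1 CPM under MNA. The groups were apart, with MNA replicate 2 highest. Its log2 fold change was 2.49 (edgeR adjusted p = 0.00524, SE 0.31). For rol-8, another gene with roller mutants, control levels were 8.31, 7.60 and 11.7 CPM and MNA levels 49.8, 55.0 and 39.0 CPM. Again the lowest MNA library exceeded the highest control, and the rise was 2.37 on the log2 scale (edgeR adjusted p = 0.00222, SE 0.25).

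The collagen lon-3, for which loss of function gives long animals and extra copies give dumpy ones, was at 2.65, 2.79 and 4.12 CPM in the controls and at 12.8, 14.2 and 13.5 CPM under MNA. Its MNA libraries were the closest to each other of any member, with a coefficient of variation of 5.31%, against 25.5% in the controls. The log2 fold change was 2.07 (95% interval 1.54 to 2.60, edgeR adjusted p = 0.00106), the smallest estimate of the 8 with the smallest adjusted p. The intervals of all members overlapped, as for dpy-4, whose interval was 1.82 to 3.24.

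**Figure D2:**
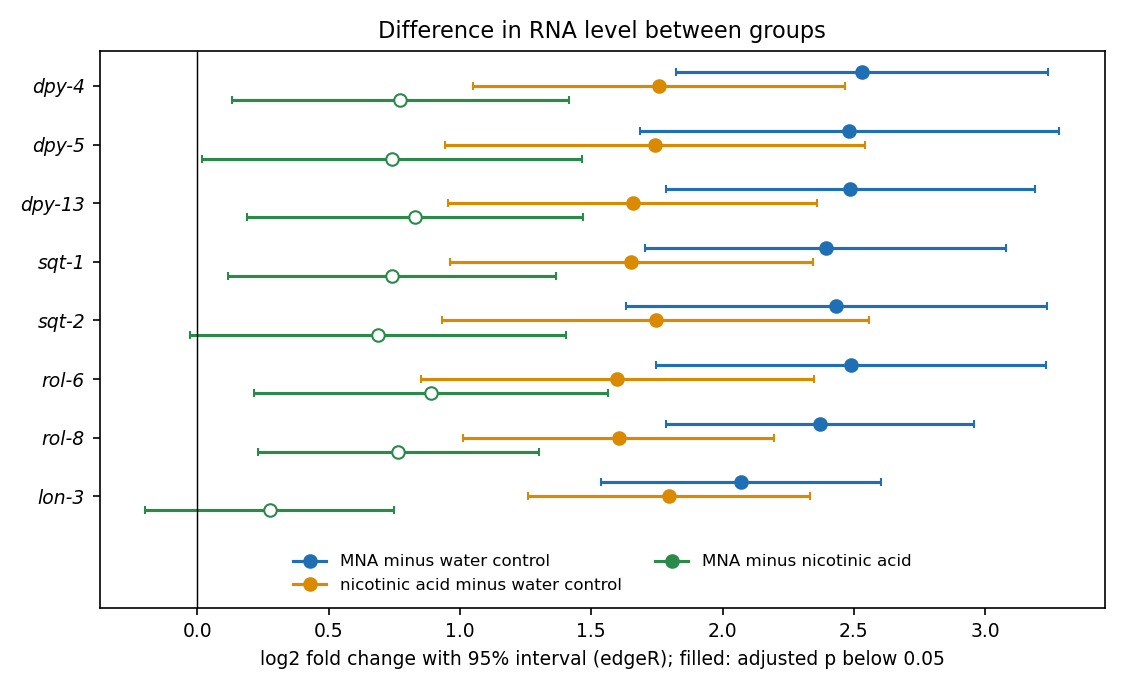
Log2 fold change of each body shape collagen, with its 95% interval from the edgeR model, for MNA against control, nicotinic acid (NA) against control and MNA against nicotinic acid. Intervals against control lie above 0 for every gene, with estimates from 2.07 to 2.53 under MNA and from 1.60 to 1.80 under nicotinic acid, while those between the compounds start between -0.20 and 0.23; filled points passed the adjusted threshold.

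The same was asked of nicotinic acid, with the same control libraries. All 8 members were called higher in the fit of all 9 libraries, where 1.94% of all genes were called higher and 3.40% lower. Their log2 fold changes ran from 1.60 to 1.80 with a median of 1.70, beside -0.000247 for all genes tested, and stood between places 143 and 170 of 13985. The nicotinic acid libraries lay above all controls for 8 of 8 members, which was so for 10.7% of all genes.

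The levels of dpy-4 in nicotinic acid replicates 1 to 3 were 75.3, 61.99 and 41.98 CPM, with a log2 fold change of 1.76 against control (edgeR adjusted p = 0.0239, SE 0.30). For dpy-5 they were 75.8, 49.5 and 39.6 CPM (log2 fold change 1.74, edgeR adjusted p = 0.0355, SE 0.33), and for dpy-13 75.5, 61.9 and 42.4 CPM (1.66, adjusted p = 0.0276, SE 0.29). In each dumpy gene replicate 1 was highest and replicate 3 lowest, and replicate 3 still lay above every control library. The nicotinic acid levels of sqt-1 were 38.01, 35.3 and 24.5 CPM (log2 fold change 1.65, edgeR adjusted p = 0.0252, SE 0.29). Those of sqt-2 were 14.1, 16.2 and 8.14 CPM, with the widest interval of log2 fold change, 0.93 to 2.56 (edgeR adjusted p = 0.0319). Both squat genes were lowest in replicate 3, and sqt-2 was highest in replicate 2.

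Of the rollers under nicotinic acid, rol-6 was at 27.0, 25.5 and 16.5 CPM (log2 fold change 1.60, edgeR adjusted p = 0.0352, SE 0.32) and rol-8 at 32.0, 32.8 and 20.2 CPM (1.61, adjusted p = 0.0163, SE 0.25). The lowest of these values was again in replicate 3 and above the highest control. The collagen lon-3 was at 14.5, 11.5 and 7.56 CPM, a spread of 30.98% of the mean, and its log2 fold change was 1.80 (edgeR adjusted p = 0.00452, SE 0.24). It had the largest estimate and the smallest adjusted p of the members in this comparison.

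All members but lon-3 lost the call under nicotinic acid in at least 1 fit with a library left out, while no direction changed. Calls were lost also without an MNA library, which is not part of this comparison but shares its estimate of spread. In those fits the log2 fold changes were still 1.60 to 1.80. In edgeR only lon-3 passed when control replicate 1 was left out (adjusted p of the 8 members up to 0.142), and likewise without nicotinic acid replicate 1 (up to 0.116). When nicotinic acid replicate 2 was absent, rol-8 and lon-3 passed (highest adjusted p = 0.0783), as they did with the 6 libraries fitted alone (0.0983). Without control replicate 2 or 3, sqt-1, rol-6, rol-8 and lon-3 passed (0.0757 and 0.0663), and without MNA replicate 1, dpy-4, sqt-1, rol-8 and lon-3 passed (0.0655). The call of dpy-5 was lost without MNA replicate 2 (0.0578), those of dpy-5 and rol-6 without MNA replicate 3 (0.0538), and all 8 passed without nicotinic acid replicate 3. Over these fits the log2 fold changes stayed between 1.36 and 2.04. Under MNA all 8 members passed whichever of the 9 libraries was left out, with log2 fold changes from 1.96 to 2.82 and a highest adjusted p of 0.0388 without MNA replicate 2.

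Set against each other, worms on MNA and on nicotinic acid did not differ in any body shape collagen past the threshold, at doses that were not matched. In edgeR, DESeq2 and limma-voom 0 of 8 members passed, while 6 of 8 had an unadjusted p below 0.05 in edgeR, as did 13.6% of all genes. In this comparison 1.10% of all genes were called higher and 0.315% lower. The estimates were all above 0, with a median of 0.75 on the log2 scale. The largest was that of rol-6 at 0.89 (95% interval 0.22 to 1.56, edgeR adjusted p = 0.227), and rol-8 followed the same course at 0.77 (0.23 to 1.30, adjusted p = 0.200). For dpy-13 the difference was 0.83 (0.19 to 1.47), for dpy-4 0.77 (0.13 to 1.41), for dpy-5 0.74 (0.02 to 1.46) and for sqt-1 0.74 (0.12 to 1.37). The intervals of sqt-2 (-0.03 to 1.404) and lon-3 (-0.20 to 0.75) included 0. The lon-3 estimate was 0.28 (edgeR adjusted p = 0.657). The 3 MNA libraries lay above all nicotinic acid libraries for 6 of 8 members, against 9.79% of all genes. The exceptions were lon-3 and dpy-5, for which MNA replicate 3 at 75.4 CPM was just under nicotinic acid replicate 1 at 75.8 CPM, and sqt-2 was apart by a margin of 16.3 against 16.2 CPM.

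The members also varied together among replicates. Control replicate 3 was the highest control for 8 of 8 members, and control replicate 2 the lowest for 7, the exception being lon-3. Nicotinic acid replicate 3 was the lowest of its group for 8 of 8, and replicate 1 the highest for 6. MNA replicate 2 was the highest of its group for 8 of 8, and replicate 3 the lowest for 7, again with lon-3 as the exception. Over the 28 pairs of members, Pearson's r of log2 CPM over the 9 libraries ran from 0.958 to 0.998 with a median of 0.992. These points share libraries and group differences, so the 8 genes are not 8 separate observations of the treatments. The 7 pairs with lon-3 had the lowest values, between 0.958 and 0.972.

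Outside the members, the genes whose log2 CPM followed the mean of the 8 most closely over the 9 libraries were the cuticle collagen genes col-90 (r = 0.995) and col-17 (r = 0.989), K08H2.2 (r = 0.984), K02E11.10 (r = 0.981) and qua-1 (r = 0.981), a hedgehog-related gene needed for moulting. Since they were picked for likeness over the same libraries, their rises are a description. The level of col-90 was 6.94 ± 2.34 CPM in the controls, 21.8 ± 6.45 CPM under nicotinic acid and 43.3 ± 9.31 CPM under MNA (SD, n = 3), and that of col-17 was 10.6 ± 4.77, 33.8 ± 8.36 and 69.7 ± 12.1 CPM. Their means thus had the order of the members, control below nicotinic acid below MNA, with MNA differences from control of 2.63 and 2.71 on the log2 scale. Between the compounds neither passed (edgeR adjusted p = 0.210 for col-90 and 0.226 for col-17), nor did any member. Under nicotinic acid against control col-17 did not pass (edgeR adjusted p = 0.0542). There col-90 passed (0.0400), a call lost in 7 of the 9 fits with a library left out. The pattern was shallower in qua-1, at 10.5 ± 3.04, 21.3 ± 5.46 and 30.1 ± 3.34 CPM, and in K08H2.2, at 1.39 ± 0.0737, 1.92 ± 0.132 and 2.17 ± 0.0973 CPM.

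Gene by gene, the closest partner was another member for 5 of the 8: dpy-13 for dpy-4 and the reverse (r = 0.998), dpy-4 for dpy-5 (r = 0.996), rol-6 for sqt-1 (r = 0.997) and dpy-13 for rol-8 (r = 0.996). For rol-6 it was col-17 (r = 0.998) and for sqt-2 it was qua-1 (r = 0.993). For lon-3 it was H23N18.5 (r = 0.996), at 0.81, 0.80 and 1.14 CPM in the controls, 4.47, 3.58 and 2.12 CPM under nicotinic acid and 3.37, 3.81 and 3.89 CPM under MNA. Like lon-3, H23N18.5 had its highest library in nicotinic acid replicate 1 and not in an MNA library.

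**Figure D3:**
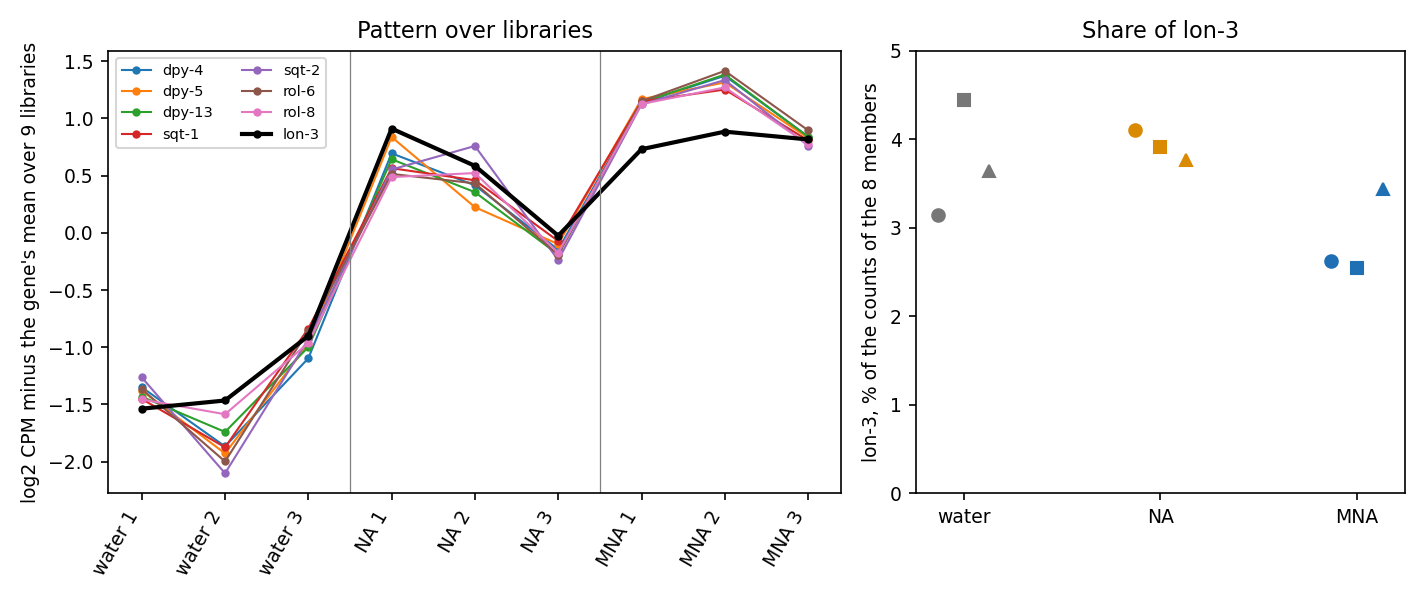
Left, log2 CPM of each body shape collagen minus its mean over the 9 libraries, in the water control, nicotinic acid (NA) and MNA libraries; lines join the values of 1 gene and imply no order of replicates. Right, lon-3 counts as a percentage of the summed counts of the 8 genes in each library, between 2.55% in MNA replicate 2 and 4.44% in control replicate 2.

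The share of lon-3 in the members' counts was examined after its values were seen. In the controls lon-3 held 3.15%, 4.44% and 3.64% of the members' counts, with exact Clopper-Pearson 95% intervals of 2.41% to 4.04%, 3.45% to 5.62% and 3.00% to 4.36%, which cover counting error only. Under nicotinic acid its share was 4.11%, 3.92% and 3.76%, and under MNA it was 2.63%, 2.55% and 3.44% (intervals 2.34% to 2.93%, 2.31% to 2.81% and 3.11% to 3.79%). MNA replicates 1 and 2 lay below all other libraries, and MNA replicate 3 lay within the range of the controls. The log2 ratio of lon-3 to the other members was 0.39 lower under MNA than in control (two-sided exact permutation test, p = 0.2). It was 0.48 lower under MNA than under nicotinic acid (exact permutation p = 0.1, the smallest that 3 libraries against 3 can give) and 0.09 higher under nicotinic acid than in control (exact permutation p = 0.7). The design cannot reach the threshold of 0.05 for this ratio. Over the 9 libraries the share of lon-3 thus ran from 2.55% to 4.44%, and those of other low members also varied, from 3.57% to 5.51% for sqt-2, from 7.54% to 9.22% for rol-6 and from 9.08% to 12.1% for rol-8. The ranges were 10.8% to 12.7% for sqt-1, 16.8% to 21.5% for dpy-5, 19.2% to 21.7% for dpy-4 and 20.99% to 23.1% for dpy-13.

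Other genes of the cuticle did not share one direction with the members. Of the 6 furrow collagens, which form the rings of the cuticle, dpy-8 and dpy-9 rose under both compounds in edgeR and 4 did not pass in the fit of all 9 libraries. Of those 4, 1 was called lower under nicotinic acid by DESeq2, and likewise by edgeR when nicotinic acid replicate 2 or control replicate 2 was removed. The level of dpy-8 was 6.61 ± 1.75 CPM in control and 24.4 ± 2.76 CPM under MNA (SD, n = 3), a log2 fold change of 1.87 (edgeR adjusted p = 0.000944, SE 0.20). Under nicotinic acid the log2 fold change of dpy-8 was 1.30 (edgeR adjusted p = 0.00992, SE 0.21). For dpy-9 these were 1.73 (edgeR adjusted p = 0.00102, SE 0.21) and 1.28 (adjusted p = 0.00946, SE 0.21). The calls of dpy-8 and dpy-9 against control held in every alternative fit. Of the furrow genes that did not pass, dpy-10 was at -0.38 under MNA and -0.63 under nicotinic acid, dpy-3 at 0.26 and -0.23, dpy-2 at 0.08 and -0.25, and dpy-7 at 0.04 and -0.30. The median of the furrow list was 0.17 under MNA and -0.24 under nicotinic acid. Its summed level was 81.7 to 122 CPM in control, 76.9 to 118.6 CPM under nicotinic acid and 116 to 138 CPM under MNA.

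Of 7 other collagens with mutant body shapes or blisters, 0 rose and 2 fell under MNA, and 3 rose and 2 fell under nicotinic acid in edgeR. Under MNA 1 was higher in DESeq2 and 0 in limma-voom, and 3 had an unadjusted p below 0.05 in either direction. Under nicotinic acid DESeq2 called 4 higher and 3 lower and limma-voom 0 higher and 2 lower, and all 7 had an unadjusted p below 0.05 in edgeR. The list's median was 1.09 under MNA and 2.76 under nicotinic acid on the log2 scale. The genes that fell were dpy-17 and dpy-14, whose mutants are also dumpy. The level of dpy-17 was 153 ± 42.5 CPM in control, 29.0 ± 14.6 CPM under nicotinic acid and 21.6 ± 5.65 CPM under MNA (SD, n = 3). Its log2 fold change was -2.82 under MNA (edgeR adjusted p = 0.0188, SE 0.47) and -2.42 under nicotinic acid (adjusted p = 0.0372, SE 0.46). For dpy-14 these were -2.84 (edgeR adjusted p = 0.0268, SE 0.53) and -2.56 (adjusted p = 0.0462, SE 0.52). The calls under MNA were lost for both when MNA replicate 1 or 2 or control replicate 1 or 3 was removed, and for dpy-14 also without nicotinic acid replicate 3 or MNA replicate 3, with a highest adjusted p of 0.0931 for dpy-17 and 0.121 for dpy-14. The calls under nicotinic acid were lost in 7 of the 9 such fits for dpy-17, without any library but control replicate 2 or nicotinic acid replicate 1, and in 8 of 9 for dpy-14, without any library but nicotinic acid replicate 1 (highest adjusted p = 0.121 and 0.141).

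The genes of that list that rose under nicotinic acid were bli-1, a strut collagen whose loss gives blisters, at 3.01 (edgeR adjusted p = 0.0356, SE 0.63), rol-1 at 3.08 (adjusted p = 0.0357, SE 0.61) and bli-6 at 2.76 (adjusted p = 0.0394, SE 0.57). All 3 lost the call without control replicate 1 or 3 or any 1 MNA library, bli-1 also without control replicate 2 and bli-6 without nicotinic acid replicate 3 (adjusted p up to 0.158 for bli-1, 0.151 for rol-1 and 0.154 for bli-6). In nicotinic acid replicate 1 rol-1 was at 23.3 CPM and bli-1 at 11.1 CPM, the highest libraries of these genes. Under MNA the collagens bli-1, bli-6 and rol-1 did not pass in the edgeR fit of all 9 libraries, but 2 of the 7 genes of the list were called higher when nicotinic acid replicate 1 was left out and 2 when the 6 libraries were fitted alone.

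**Figure D4:**
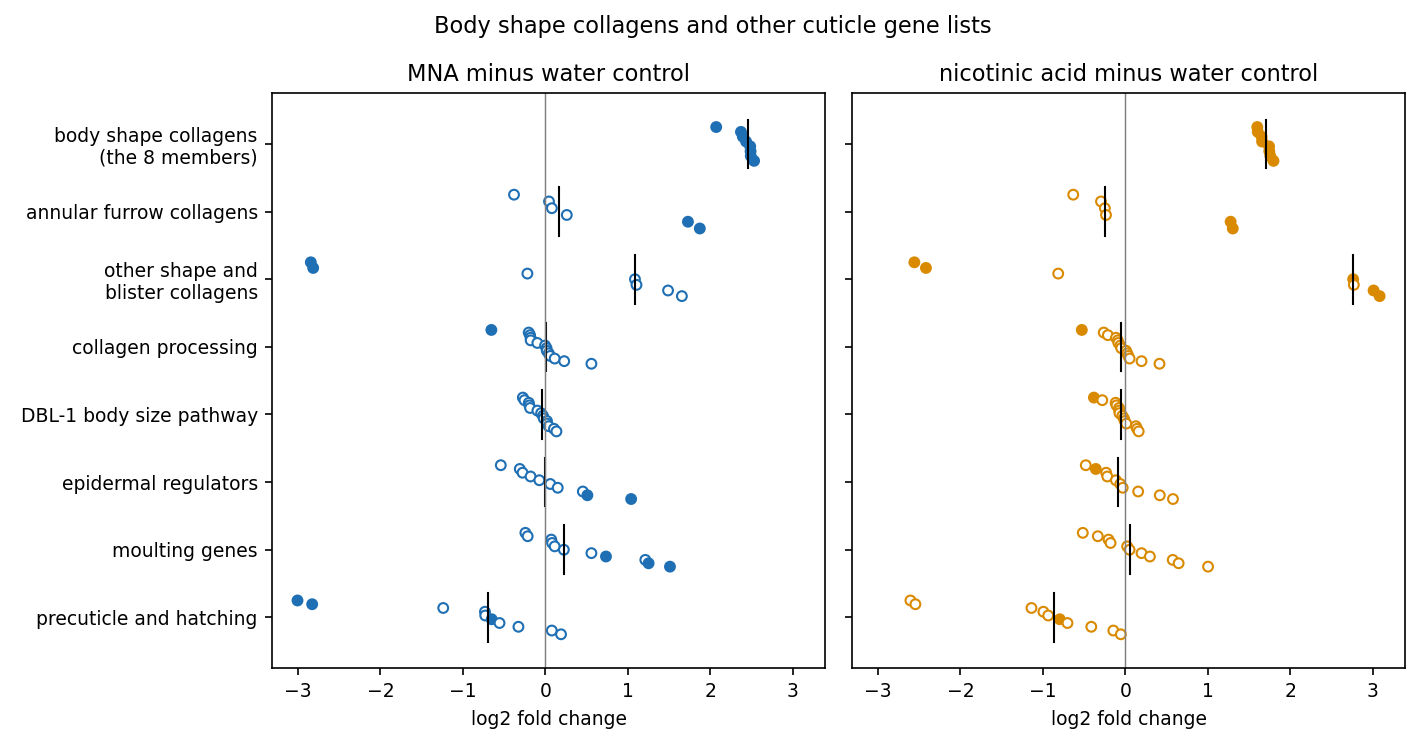
Log2 fold changes of the genes of each list against control, under MNA and under nicotinic acid (NA); each point is 1 gene, filled where it passed the edgeR threshold, and bars mark the list medians. The 8 body shape collagens lie together, with medians of 2.46 and 1.70, while most other lists spread to both sides of 0 and the pre-cuticle and hatching list lies mostly below it.

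Of 14 genes that process collagens, 1 was called in each comparison. Over all genes 3.63% were called higher and 3.78% lower under MNA, and 1.94% and 3.40% under nicotinic acid. Against control, 1 call in 14 is thus near the share over all genes. The gene let-268, a procollagen lysyl hydroxylase, fell by 0.66 under MNA (log2, edgeR adjusted p = 0.00533, SE 0.12), a call that held in every alternative fit. It fell by 0.53 under nicotinic acid (edgeR adjusted p = 0.0226, SE 0.12), a call that did not survive removal of replicate 1 or 3 of either group (adjusted p up to 0.0862). The prolyl hydroxylase gene dpy-18, whose product modifies collagens before they fold, was higher under MNA than under nicotinic acid by 0.49 (edgeR adjusted p = 0.0171, SE 0.09), a call lost without nicotinic acid replicate 1 or 3 or MNA replicate 1 or 2 (highest adjusted p = 0.116). Of 14 genes of the BMP pathway that sets body size, 0 passed under MNA in edgeR, DESeq2 and limma-voom, with 3 at an unadjusted p below 0.05. Under nicotinic acid 1 fell, tsp-21, by 0.38 (edgeR adjusted p = 0.0421), and its call was lost in 7 of 9 leave-one-out fits, those without any but nicotinic acid replicate 2 or MNA replicate 3 (highest adjusted p = 0.154).

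Of 10 regulators of the epidermis and moulting cycle, 2 rose under MNA and 1 fell under nicotinic acid. Over all genes 3.63% were called higher under MNA and 3.40% lower under nicotinic acid, so 1 call in 10 is near the latter share. The count under MNA was 1 to 2 in the other settings and 0 to 2 when 1 library was left out. The gene lin-42, the worm relative of the clock gene Period that times moults, rose from 18.5 ± 4.77 to 38.1 ± 4.62 CPM under MNA (SD, n = 3; log2 fold change 1.04, edgeR adjusted p = 0.0170, SE 0.20). The call did not survive removal of MNA replicate 1 or 2 or of control replicate 1 (adjusted p up to 0.0805). The zinc finger gene bed-3 was at 0.51 under MNA (edgeR adjusted p = 0.0376, SE 0.14), a call lost when any 1 MNA library or control replicate 2 or 3 was removed (adjusted p up to 0.175). The GATA factor gene elt-1, which specifies epidermal cells, was at -0.36 under nicotinic acid (edgeR adjusted p = 0.0473), a call lost in all such fits but that without nicotinic acid replicate 2 (highest adjusted p = 0.176).

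Of 11 genes needed for moulting, 3 rose under MNA and 0 passed under nicotinic acid, with 3 at an unadjusted p below 0.05 in edgeR, 1 past the threshold in DESeq2 and 0 in limma-voom. The gene mlt-10 rose by 0.73 on the log2 scale (edgeR adjusted p = 0.00139, SE 0.10) and the astacin protease gene nas-36 by 1.25 (adjusted p = 0.0106, SE 0.26), with calls that held whichever library was left out. The rise of qua-1 was 1.51 (edgeR adjusted p = 0.0126, SE 0.26) and was lost without MNA replicate 2 (adjusted p = 0.0558). The summed level of the moulting list overlapped between groups, at 289 to 412 CPM in control, 266 to 378 CPM under nicotinic acid and 319 to 382 CPM under MNA.

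Markers of other stages and cell types were set beside the members. Genes of the embryonic pre-cuticle and of hatching were lower in sum in both compound groups than in control. Whether this list marks embryos alone was not tested. Much of its sum was egg-6, at 561 to 628 CPM in control, 560 to 572 CPM under nicotinic acid and 557 to 656 CPM under MNA. The summed level of the list was 997 to 1197 CPM in control, 771 to 930 CPM under nicotinic acid and 831 to 959 CPM under MNA. No gene of the 10 found was at 0 in all libraries. Of these 10, 3 fell under MNA and 1 under nicotinic acid, with medians of -0.69 and -0.86. Not all members of the list were lower: under MNA 2 had estimates above 0, egg-6 at 0.08 and lpr-3 at 0.19. The hatching protease gene hch-1 was at 40.7, 27.1 and 27.2 CPM in the controls, 1.23, 9.57 and 6.14 CPM under nicotinic acid and 4.38, 2.51 and 4.94 CPM under MNA. Its fall under MNA was 3.01 on the log2 scale (edgeR adjusted p = 0.0343), that of the cuticlin gene cut-3 was 2.83 (adjusted p = 0.0346) and that of let-4, an apical matrix protein gene, was 0.65 (adjusted p = 0.0329). Under nicotinic acid let-4 fell by 0.79 (edgeR adjusted p = 0.0192). These counts changed when 1 library was left out. Under MNA 0 of the 10 passed without control replicate 3 or without any 1 MNA library. The count was 1 when either control replicate 1 or nicotinic acid replicate 3 was removed, and 5 when nicotinic acid replicate 2 was. Under nicotinic acid the count was 0 after removing nicotinic acid replicate 3 or control replicate 1, 2 after removing control replicate 2 and 7 after removing nicotinic acid replicate 2. DESeq2 called 5 lower under MNA and 8 under nicotinic acid, and limma-voom 4 and 4. In edgeR 8 of the 10 had an unadjusted p below 0.05 under each compound. The part of embryonic RNA in the levels of the members was not tested.

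Of 5 adult cuticle markers 3 were tested, and most of the list's sum was col-19. The sum was 284 to 368 CPM in control, 330 to 423 CPM under nicotinic acid and 258 to 295 CPM under MNA. As given above, bli-1 passed the threshold under nicotinic acid. Of 9 sperm markers 4 were tested, with msd-1 at 0 in every library. Their sum was 20.3 to 21.01 CPM in control, 23.7 to 28.0 CPM under nicotinic acid and 20.4 to 21.9 CPM under MNA. Under nicotinic acid spe-15, a myosin of sperm formation, rose by 0.46 (edgeR adjusted p = 0.0151), a call lost when nicotinic acid replicate 1 or control replicate 3 was removed (adjusted p up to 0.0534). The sperm factor gene spe-11 rose by 3.29 (edgeR adjusted p = 0.0233), a call lost without any 1 control (highest adjusted p = 0.0891). Its controls had at most 3 counts, the detection floor, and only the nicotinic acid libraries were high enough for the filter. Those libraries were at 1.88, 0.43 and 0.51 CPM, so this rise is a description. Muscle markers summed to 3153 to 3394 CPM in control, 3300 to 4151 CPM under nicotinic acid and 3118 to 3597 CPM under MNA. Of these 10, the myosin light chain gene mlc-1 rose by 0.39 under nicotinic acid (edgeR adjusted p = 0.0173), lost without control replicate 1 (0.0706), and the troponin T gene mup-2 by 0.35 (adjusted p = 0.0258), lost when nicotinic acid replicate 2 or 3 or any 1 control was removed (adjusted p up to 0.0873).

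Germline and oocyte markers, with summed ranges that overlapped between groups (10776 to 11935 CPM in control, 10186 to 10942 CPM under nicotinic acid and 10440 to 11610 CPM under MNA), had 0 of 10 past the threshold against control in edgeR and limma-voom. DESeq2 called 0 of them under MNA and 1 under nicotinic acid, and an unadjusted p below 0.05 was found for 0 and 1. Neuronal markers had 0 of 10 past the threshold in edgeR and limma-voom under both compounds, 0 and 1 in DESeq2 and 4 and 6 at an unadjusted p below 0.05. They summed to 347 to 390 CPM in control, 359 to 413 CPM under nicotinic acid and 387 to 408 CPM under MNA. Of 10 intestinal markers, the esterase gene ges-1 fell by 0.28 under MNA (edgeR adjusted p = 0.0241), a call lost when MNA replicate 1 or 2 or control replicate 1 or 3 was removed (adjusted p up to 0.134), and 0 passed under nicotinic acid in edgeR and limma-voom, with 2 in DESeq2 and 4 at an unadjusted p below 0.05. The intestinal sum was 62268 to 73270 CPM in control, 47683 to 66383 CPM under nicotinic acid and 56377 to 59743 CPM under MNA. The part of these cell types in the levels of the members was not tested.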

How the data were processed

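Messenger RNA of 9 libraries of whole adult worms was sequenced. The tools named upstream, per the submitters' processing notes, were TopHat 1.4.1, HTSeq and CASAVA; the sources used here do not give their settings, the genome build, the annotation or the use of strand. The deposited counts are whole reads per gene, not normalized. RPKM in the deposited table equals, to rounding, the count divided by library total and a gene length. That length was 21 bases for dpy-4 and for lon-3 and 3103 bases for sqt-1. It was 514 bases for dpy-5, 598 for rol-6, 676 for dpy-13, 714 for rol-8 and 1026 for sqt-2. Levels between genes were instead compared as CPM per kilobase of exon from Ensembl release 115, a change from the plan to use RPKM. Whether those exons match the ones counted is not known.

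Counts were fitted in R 4.3.3 with edgeR 4.0.16: genes kept by filterByExpr at a minimum count of 10 (13985 of 45461), TMM factors (0.963 to 1.028), a robust quasi-likelihood fit of group over 9 libraries, two-sided tests, Benjamini-Hochberg adjustment over all genes tested and a threshold of 0.05. CPM are counts scaled to a common total by the library total times its TMM factor, and SD are over n = 3 libraries. Log2 CPM for correlations used a prior count of 2. Replicates of a group differed by more than counting noise (chi-square per degree of freedom from 3.00 to 15.2), so none was treated as the same library deposited again; this does not show separate cultures or RNA samples. The pipeline was tested on simulated data.

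The members and the gene lists were chosen with earlier results of these data known. The text names all members, up to 3 genes with the smallest p among those past the threshold in each list and comparison, and the genes closest to the members; other named genes were chosen after their values were seen. Of the genes written in the lists, doxa-1 and dex-1 were not matched by symbol. Alternatives were a block for replicate number, RLE, upper quartile and no scaling factors, no filter, DESeq2 1.42.0, limma-voom and limma 3.58.1 on log2 RPKM with a pseudocount of 0.1 or 1, the 6 libraries of a comparison alone, and leaving out each library in turn. The per-kilobase scale and the lon-3 ratio by geometric mean were added after the data were seen.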

Additional observations from a re-analysis of the deposited data

How the results depend on the processing

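Under MNA all 8 members passed in each of the 10 other settings and 9 fits without 1 library, and between the compounds 0 of 8 passed in all of them; no direction of a member reversed. Under nicotinic acid 8 passed with all other scaling factors, DESeq2 and RPKM, 6 with no filter, 5 with limma-voom (lost for dpy-5, sqt-2 and rol-6, highest adjusted p = 0.0653), 2 with the 6 libraries alone, 2 with the replicate block and 1 to 8 when 1 library was left out. Same-numbered libraries deviated together weakly at most (r of deviations from -0.20 to 0.16, above 0.1 in 2 of 9 pairs). Yet 12 of 18 choices correlated best with their own number. Between control and MNA the r of same-numbered libraries 1 to 3 was 0.095, 0.051 and 0.159. Whether the numbers mark pairs cannot be told from these values, so the block fit is given beside the main fit. The replicate block also ended the calls of dpy-17, dpy-14, hch-1, cut-3, let-4, lin-42 and K08H2.2 under MNA (adjusted p from 0.0541 to 0.109), leaving 0 of the 10 pre-cuticle and hatching genes lower, those of dpy-17, dpy-14, bli-1, bli-6, rol-1, tsp-21, elt-1 and col-90 under nicotinic acid (0.0579 to 0.108), and that of fer-1 between the compounds (0.0525). Over all genes, MNA gave 508 higher and 528 lower (236 and 258 lower with RPKM plus 0.1 and plus 1), and 228 to 565 higher and 141 to 630 lower when 1 library was left out. Nicotinic acid gave 272 higher and 475 lower, against 475 higher with no filter, 176 and 144 higher and 174 and 178 lower with RPKM plus 0.1 and plus 1, 144 higher and 244 lower with 6 libraries, and 88 to 280 higher and 166 to 558 lower without 1 library. Between the compounds 154 were higher and 44 lower, against 281 and 150 with no filter, 259 and 135 with DESeq2, 91 and 10 with RPKM plus 0.1, 97 and 11 with RPKM plus 1, 92 lower with the replicate block, and 75 to 258 higher and 1 to 160 lower without 1 library. The cause of these changes was not tested. Group means of the members moved by less than 1 SD without TMM factors, and the lon-3 ratio by geometric mean gave the same differences (-0.39, 0.09 and -0.48). Intervals cover the fitted error, not the assignment of reads among collagen paralogs.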
